A study of Arabidopsis thaliana with 12 samples.

Results

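A probe set that the rule of selection assigns to the cytosolic chaperone gene HSP70 (AT3G12580) gave a very low signal in seedlings of the line 35S-FAD3. It was described across 12 arrays together with 4 other genes of protein folding, which makes 5 probe sets of the 22810 on the Affymetrix ATH1 array. The others were AT5G48570 (FKBP65), Fes1B, ATERDJ3B and BZIP60, each with 1 probe set. The HSP70 probe set was picked for its low signal on both 35S-FAD3 arrays, so its level there is a description with no test. The other 4 were named as heat shock and endoplasmic reticulum (ER) folding genes to set beside it. The platform table used here lists no gene for it, so its name rests on the rule alone. All 5 passed the filter on low signal, a mean of at least 22.9 over the 12 arrays, which 13652 probe sets passed.

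RNA came from whole seedlings of Arabidopsis thaliana, at stage 1.02 of growth, with 1 ambient and 1 cold array from each of 6 lines. Seeds stayed 4 days in a fridge, and the plants then grew on MS medium at 20 °C in cycles of 16 h light and 8 h dark. How cold the treatment was, and for how long, is not stated in the labels. The control lines were Col-0, the wild type, and Col-aeq, the Columbia line with the calcium reporter apoaequorin. Of the 3 mutant lines, fab1 and fad2 came from chemical (EMS) mutagenesis, and fad3/7/8 is a triple mutant built by crossing that carries apoaequorin by its titles. FAB1 acts in the elongation of palmitate, FAD2 desaturates oleate in the ER, and FAD3, FAD7 and FAD8 desaturate linoleate. The titles name the remaining line 35S-FAD3, for FAD3 driven by the constitutive 35S promoter of cauliflower mosaic virus. Its genotype label gives apoaequorin alone, and it was grouped by title. None of these 5 genes had a single-gene probe set in the platform table (0 for each), so the genotypes were not checked on the arrays.

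HSP70 proteins hold unfolded stretches of other proteins and release them in cycles of ATP binding and hydrolysis. J-domain proteins such as ERdj3B start the cycle, and nucleotide exchange factors such as the Fes1 proteins end it. In plants the cytosolic set is induced by heat through heat shock factors, while misfolding in the ER acts through membrane-bound bZIP factors and raises the ER set, the unfolded protein response. FKBP65, also called ROF2, is an FK506-binding peptidyl-prolyl isomerase that works with HSP90. BZIP60 encodes a transcription factor of the unfolded protein response whose mRNA is spliced by IRE1; splice forms were not analysed here.

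Median signals were 34.5 to 39.3 per array, on the linear MAS5 scale. The Col-aeq ambient array stood apart, with a 3' to 5' signal ratio for actin of 23.3 against 6.22 to 10.1 on the other ambient arrays. Calls of the members and listed genes that changed without Col-aeq are given both ways. The seedling label was met by green-tissue and root markers on every array, with RCA, Rubisco activase, at 3043.5 to 3915.9, LHCB4.1, of the light-harvesting antenna, at 2477.5 to 4144.4, and PYK10, a root beta-glucosidase, at 2230.5 to 2815.6. The other root marker, the peroxidase gene AT5G17820, differed between lines, with 225.6 and 189.4 in fad2 against 51.5 to 118 on the other 10 arrays. RBCS1A, also on the marker list, had no single-gene probe set. No line had a second array at either temperature. Each p-value below therefore rests on the spread left after line and temperature were fitted, and does not measure the spread between separate growths. In bulk seedlings, fewer cells of a type and less RNA per cell cannot be told apart.

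The first question was how the signal of HSP70 varied over the lines. In Col-0 it was 346.8 at ambient temperature and 396.4 in the cold. In Col-aeq it was 424.6 and 230.6, and in fab1 314.8 and 386.5. These 6 arrays, from 3 lines, overlapped at high signal. The fad3/7/8 line had 220.3 and 151.9, fad2 had 104.4 and 114.7, and 35S-FAD3 had 18 and 9.9. Both fad3/7/8 arrays lay below both arrays of Col-0, Col-aeq and fab1, and both fad2 arrays lay lower still. The 35S-FAD3 arrays lay under the filter level of 22.9. For lines other than 35S-FAD3, arrays that lie apart are described here and below without a share over all probe sets.

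**Figure D1:**
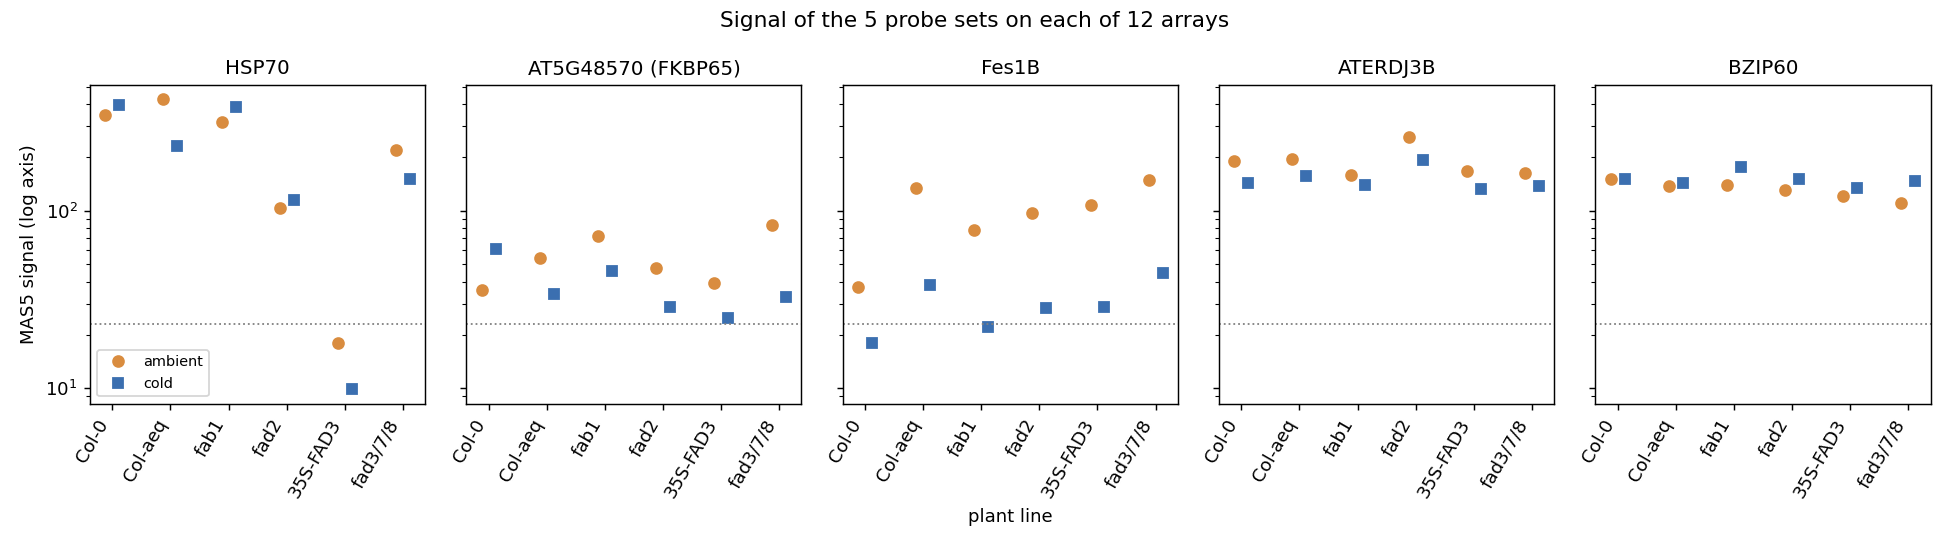
MAS5 signal (log axis) of the 5 genes in each of 6 lines, with circles for ambient and squares for cold arrays, 1 array each; the dotted line is the filter level of 22.9. The signal of HSP70 falls from 230.6 to 424.6 in the control lines to 18 and 9.9 in 35S-FAD3, while the other 4 probe sets stay between 17.9 and 259.5 on all arrays.

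On the log2(signal + 1.6) scale the 35S-FAD3 line differed from the mean of the 2 control lines by −4.51 (22.8-fold lower), and from Col-0 alone by −4.63. This was the largest difference of all 13652 probe sets in that comparison, which is what the rule selected. The size is uncertain because both signals are low: with a larger pseudocount, at the 25th percentile of all values, it was −3.95. The highest 35S-FAD3 signal was 0.172 times the lowest signal on the other 10 arrays. The next smallest such ratios were 0.309 for AT2G44210, 0.628 for 251428_at, 0.65 for GAT1_2.1 and 0.665 for AT3G17750. AT2G44210 had 35S-FAD3 signals of 55.1 and 21.5 against 178.5 to 340.4 elsewhere. HSP70 and AT2G44210 were thus the 2 probe sets with a ratio under 0.5, out of 124 (0.908% of those ranked) that were lower on both 35S-FAD3 arrays than on every other array.

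**Figure D2:**
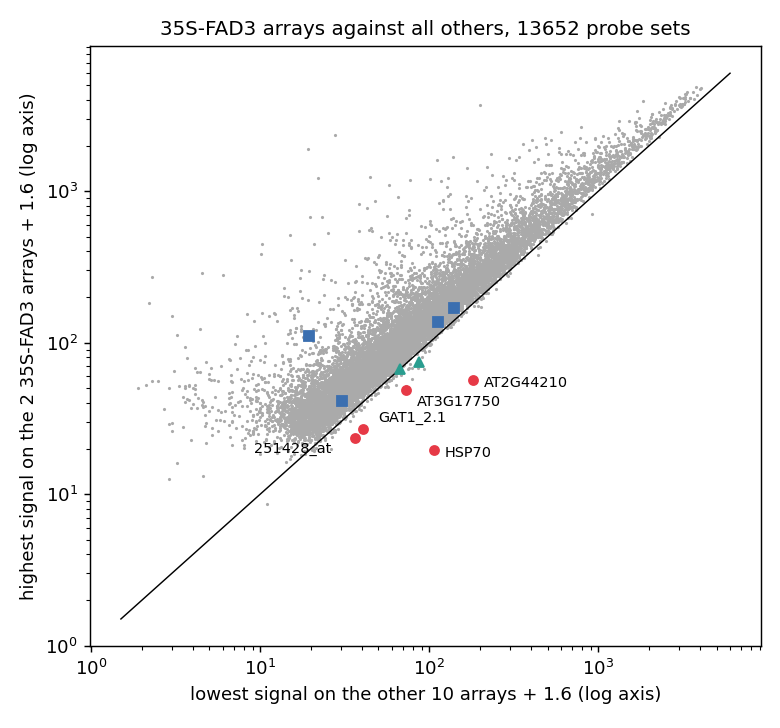
Highest signal on the 2 35S-FAD3 arrays against the lowest on the other 10 arrays, each plus 1.6 on log axes, for 13652 probe sets (grey); points under the line are lower on both 35S-FAD3 arrays than everywhere else. Red circles are the 5 smallest ratios, with HSP70 lowest, blue squares are the other 4 members, and green triangles are Hsp70-2 and Fes1A.

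The level of HSP70 was tested in fad2, fad3/7/8 and fab1. The control arrays in these tests are also those of the comparison in which the rule selected HSP70. Choosing a probe set far below the controls can favour high control values, so these tests are not independent of the choice. In fad2 the HSP70 signal was lower than in the control lines, with a log2 difference of −1.62 (SE 0.244, 3.08-fold, limma adjusted p = 0.00531). Both fad2 arrays lay below all 4 control arrays, a description given without a share over all probe sets. In that comparison 9.48% of all probe sets passed, 5.19% higher and 4.29% lower in fad2. The root marker AT5G17820 was also highest on both fad2 arrays. The other root marker, PYK10, was not, with 2286.1 and 2268.8 in fad2 within 2230.5 to 2815.6 over all arrays. A part of root tissue in the fad2 differences was not tested. Without the Col-aeq arrays the difference was −1.75 (adjusted p = 0.00176, with 11.6% passing), and without the fad2 ambient array it no longer passed (−1.39, adjusted p = 0.105). In fad3/7/8 the difference was −0.89 (SE 0.244, adjusted p = 0.244, with 0.0366% of all probe sets passing). It passed without the Col-aeq arrays (−1.01, adjusted p = 0.0327, with 5.06% passing). That fit sets a line with apoaequorin against the wild type alone, so mutation and reporter cannot be told apart in it. With single arrays left out the difference ranged from −1.08 to −0.71. The −1.08 came without the Col-aeq cold array, a fit that kept the Col-aeq ambient array with the high actin ratio. In fab1 it was 0.03 (SE 0.244, adjusted p = 0.981, with 0.0146% passing), and −0.09 without the Col-aeq arrays (adjusted p = 0.938, with 0.125% passing).

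The order of the line means was Col-0, fab1, Col-aeq, fad3/7/8, fad2 and 35S-FAD3, with geometric means over the 2 arrays of 370.8, 348.8, 313, 183, 109.4 and 13.41. The 10 pairs among the 5 lines other than 35S-FAD3 were compared in the same fit, with p adjusted over all probe sets in each pair. The fad2 line was lower than Col-0 (adjusted p = 0.0105), Col-aeq (0.0138) and fab1 (0.00846), pairs in which 5%, 8.38% and 8.08% of all probe sets passed. No other pair passed. Neighbours in the order differed by less than the threshold could show: fad3/7/8 exceeded fad2 by 0.73 (SE 0.281, adjusted p = 0.137), and Col-aeq exceeded fad3/7/8 by 0.77 (SE 0.281, adjusted p = 0.456). In those pairs 7.38% and 0.0293% of probe sets passed. For Col-0, Col-aeq and fab1 among themselves the adjusted p was 0.703 to 0.998, with 0.117%, 0.00732% and 0.0366% of probe sets passing. Against fad3/7/8, Col-0 had an adjusted p of 0.124 and fab1 of 0.582, with 0.571% and 0% passing.

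The cold did not move HSP70 in one direction. Its mean change over the 6 lines was −0.26 on the log2 scale (SE 0.162, adjusted p = 0.247), in a comparison where 33.5% of probe sets passed, 15.1% higher and 18.4% lower in the cold. Within lines the change was 0.19 in Col-0, 0.29 in fab1 and 0.13 in fad2. It was −0.88 in Col-aeq, −0.77 in 35S-FAD3 and −0.53 in fad3/7/8. Thus 3 lines rose and 3 fell, and the 3 that fell are those with apoaequorin in a title or genotype label. Whether the reporter bears on this was not tested. The 35S-FAD3 change rests on signals of 18 and 9.9, and the Col-aeq change on the ambient array with the high actin ratio. Without the Col-aeq line the mean change was −0.14 (adjusted p = 0.494, with 38.8% of probe sets passing).

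Of the other 4 members, 2 fell in the cold, beside the 18.4% of all probe sets that passed as lower. Changes alike in 6 of 6 lines, and ambient and cold ranges without overlap, are described here and below without a share over all probe sets. Fes1B, a relative of the HSP70 nucleotide exchange factor Fes1A, had ambient signals of 37.1 in Col-0, 134.8 in Col-aeq, 78.1 in fab1, 96.9 in fad2, 108.6 in 35S-FAD3 and 149.1 in fad3/7/8. In the cold, in the same order, it had 17.9, 38.2, 22.2, 28.2, 28.8 and 44.6. The cold value was lower in 6 of 6 lines, and the ambient and cold ranges overlapped through the Col-0 ambient array alone. The fall was −1.63 on the log2 scale (SE 0.123, 3.1-fold, limma adjusted p = 2.88e-06). It was −0.99 in Col-0 against −1.86 to −1.71 in the other 5 lines. Without the Col-0 line the mean was −1.76, and without Col-aeq it was −1.60 (adjusted p = 3.21e-06).

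ATERDJ3B, the J-domain co-chaperone of the ER HSP70 BiP, had ambient signals of 190 in Col-0, 195.1 in Col-aeq, 158.6 in fab1, 259.5 in fad2, 166.8 in 35S-FAD3 and 164 in fad3/7/8. Its cold signals were 143, 157.8, 139.2, 193.4, 132.5 and 137.4. Each line was lower in the cold, and the fad2 cold array lay within the ambient range of the other lines. The fall was small and even, −0.32 on the log2 scale (SE 0.0757, 1.25-fold, adjusted p = 0.00816), with −0.42 to −0.19 within lines. Without Col-aeq it was also −0.32 (adjusted p = 0.00581). It did not pass without the term for line (adjusted p = 0.09).

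BZIP60 had ambient signals of 150.4 in Col-0, 138.5 in Col-aeq, 140 in fab1, 131.8 in fad2, 120.8 in 35S-FAD3 and 110.5 in fad3/7/8. In the cold it had 152, 144.3, 177.5, 150.6, 134.7 and 148.3. The cold value was higher in 6 of 6 lines, by 0.02 in Col-0 to 0.42 in fad3/7/8, and the 2 ranges overlapped. The mean of 0.20 (SE 0.0847, adjusted p = 0.0984) did not pass, nor did it without Col-aeq (0.22, adjusted p = 0.052).

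AT5G48570, the FKBP65 gene, had ambient signals of 35.6 in Col-0, 54.3 in Col-aeq, 71.9 in fab1, 47.9 in fad2, 39.3 in 35S-FAD3 and 83.5 in fad3/7/8. Its cold signals were 61, 34.2, 46, 28.8, 24.8 and 32.8. Col-0 was the single line with a higher cold signal, by 0.75 on the log2 scale, against −1.31 to −0.63 in the other 5. The mean of −0.53 (SE 0.209, adjusted p = 0.0746) did not pass with 6 lines. It passed without Col-0 (−0.78, adjusted p = 0.00226) and did not without Col-aeq (−0.50, adjusted p = 0.0983).

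**Figure D3:**
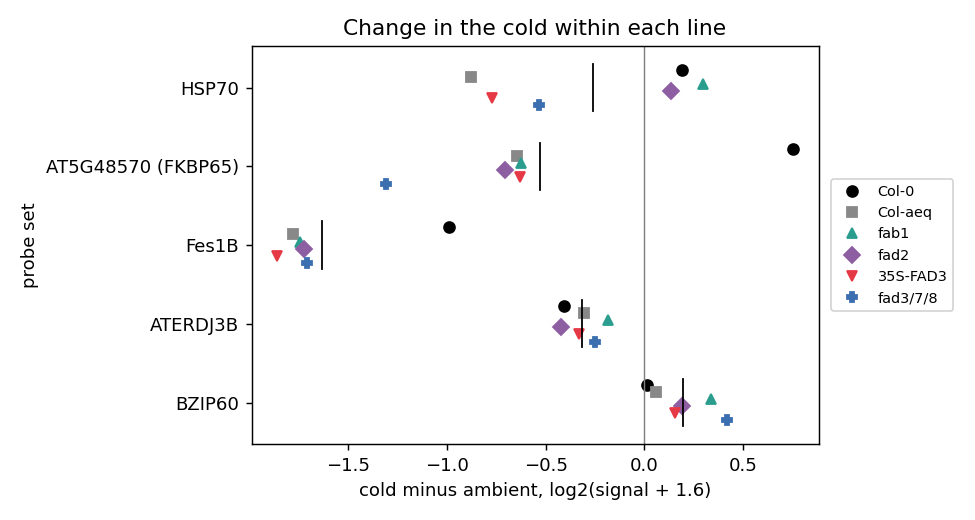
Cold minus ambient difference in log2(signal + 1.6) within each of 6 lines for the 5 probe sets; symbols are lines, each from 1 pair of arrays, and the short vertical bars are means. Fes1B and ATERDJ3B lie below 0 in 6 lines, BZIP60 lies above 0 in 6, AT5G48570 is above 0 in Col-0 alone, and HSP70 is above 0 in 3.

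The cold change was also compared between the 3 mutant lines and the 2 control lines, as the title of the series asks what membrane fluidity does in the perception of cold. None of the 5 members passed, and 0% of all 13652 probe sets did (0 at the adjusted threshold by limma, 1024 at an unadjusted p under 0.05). The largest difference among members was that of AT5G48570, −0.93 (SE 0.406, adjusted p = 0.664), and it ranged from −1.63 to −0.24 when single lines were left out. For HSP70 the difference was 0.31 (SE 0.346) and it ranged from −0.23 to 0.84 in the same way.

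Beside the low HSP70 signal in 35S-FAD3, none of the other 4 members passed there, in a comparison where 0.19% of probe sets did. AT5G48570 stood at −0.50 (SE 0.313, adjusted p = 0.517), ATERDJ3B at −0.19 (SE 0.114, adjusted p = 0.494), BZIP60 at −0.19 (SE 0.127, adjusted p = 0.535) and Fes1B at 0.36 (SE 0.185, adjusted p = 0.44). These signals lay within the range of the other arrays except for the lowest AT5G48570 and ATERDJ3B values, both on the 35S-FAD3 cold array. In a fit without the Col-aeq arrays, Fes1B was higher in 35S-FAD3 than in Col-0 by 1.08 (adjusted p = 0.0292, with 2.31% of probe sets passing). The other 3 did not pass (adjusted p 0.341 to 0.542). The line mean of Fes1B in 35S-FAD3, 56.28, lay above the 25.87 of Col-0 and below the 72.08 of Col-aeq.

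Fes1B separated the control lines from each other. Both Col-0 signals lay below those of every other line at the same temperature, given without a share over all probe sets. Its signal in Col-0 was lower than in Col-aeq, with a log2 difference of −1.42 (SE 0.213, 2.68-fold, adjusted p = 0.0338). Of the 5 members it alone passed between the 2 controls, where 0.117% of all probe sets did. For the other members the adjusted p was 0.703 to 0.905. With the 2 controls averaged, Fes1B did not pass in any altered line. In fad3/7/8 it was 0.89 higher (SE 0.185, adjusted p = 0.207). In a fit without the Col-aeq arrays, it was higher in fad2 than in Col-0 by 0.98 (adjusted p = 0.0128, with 11.6% of probe sets passing). In fad3/7/8 it was then higher by 1.60 (adjusted p = 0.00448, with 5.06% passing). It did not pass in fab1 (0.66, adjusted p = 0.331, with 0.125% passing). The calls thus differed between the fits with and without the Col-aeq arrays, which differ in the control, the spread and the adjustment of p. The line mean of Fes1B was 25.87 in Col-0 and 72.08 in Col-aeq. It was 41.95 in fab1, 52.58 in fad2 and 56.28 in 35S-FAD3, all below Col-aeq, and 81.84 in fad3/7/8.

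In fad2, ATERDJ3B had its highest signal of the 6 lines at each temperature. It stood 0.39 above the control mean (SE 0.114, 1.31-fold, adjusted p = 0.0534), just short of the threshold, and passed without the Col-aeq arrays (0.44, adjusted p = 0.0351). AT5G48570 (−0.26, adjusted p = 0.646), Fes1B (0.27, adjusted p = 0.398) and BZIP60 (−0.05, adjusted p = 0.832) did not pass with both controls.

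Other chaperone genes were taken from 10 lists with 140 genes, of which 38 had a single-gene probe set (39 probe sets) and 32 probe sets were tested. The lists of heat shock factors, HSP90, HSP100 and organelle HSP70 genes had 0 probe sets. Genes that the tables used here name by locus alone are placed by the hand-written list. In the cold, 4 of the 32 listed probe sets were higher and 10 lower, beside the 15.1% and 18.4% over all probe sets. Their median change was −0.01, against −0.03 over all probe sets. With the Col-aeq line left out, 7 were higher and 10 lower, where 38.8% of all probe sets passed. Each of the 4 higher and 10 lower calls was also made without Col-aeq, and AT3G09440, AT4G02450 and BZIP17 were called in addition.

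Of the small heat shock proteins, which bind unfolding proteins without ATP, 4 of 4 tested fell in the cold, with a median of −0.93. AT4G21870 ranged over signals of 191.2 to 591.5 without cold and 81.6 to 188.8 with it, ranges that did not overlap, and fell by 1.29 on the log2 scale (SE 0.157, adjusted p = 9.87e-05). AT1G54050 had 48 to 106.2 and 28.8 to 47.4, which did not overlap either, and fell by 1.12 (SE 0.135, adjusted p = 9.43e-05). AT5G37670 (−0.74, adjusted p = 0.00527) and AT2G29500 (−0.67, adjusted p = 0.00459) had lower and overlapping signals. All 4 were lower in the cold in 6 of 6 lines. Over all probe sets 18.4% passed as lower, and the share lower in 6 of 6 lines is not given. The other 4 listed probe sets of this class had means below the filter and were not tested.

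In the list of cytosolic co-chaperones 3 of 9 fell and 0 rose, with a median of −0.20. Beside Fes1B they were Fes1C, another Fes1 gene, which fell by 0.80 (SE 0.105, adjusted p = 0.000178), and SGT1A, an HSP90 co-chaperone, which fell by 0.39 (SE 0.0933, adjusted p = 0.00819). Both were lower in the cold in 6 of 6 lines. Fes1A, which binds cytosolic HSP70, stood at −0.20 (SE 0.126, adjusted p = 0.259), with a rise in 2 of 6 lines. AT4G02450, in the same list, stood at 0.14 (SE 0.0892, adjusted p = 0.25) and passed as higher without the Col-aeq line (0.21, adjusted p = 0.0478).

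Among the 3 cytosolic HSP70 genes tested, 0 passed in the cold with 6 lines (median 0.16). AT3G09440 stood at 0.25 (SE 0.119, adjusted p = 0.133), Hsp70-2 at 0.16 (SE 0.141, adjusted p = 0.426) and AT1G11660 at 0.01 (SE 0.11, adjusted p = 0.942). Leaving out Col-aeq brought AT3G09440 past the threshold (0.33, adjusted p = 0.0357). Cytosolic HSP70 genes are close copies of one another, and the probes that could hybridise with more than 1 of them were not identified here.

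Of the 27 listed ER folding genes, 5 had a single-gene probe set, so most of that list was not seen. In the cold 2 of these 5 fell and 0 rose, ATERDJ3B and AT5G07340 (−0.32, SE 0.1, adjusted p = 0.0313). AT5G07340 lost its call when Col-0, fad2, 35S-FAD3 or fad3/7/8 was left out (adjusted p 0.0741 to 0.097). CRT1b, a calreticulin that binds calcium and glycoproteins in the ER, stood at −0.02 (SE 0.0795, adjusted p = 0.849). Of the 3 regulators, BZIP28, a membrane-bound factor of the unfolded protein response, fell by 0.53 (SE 0.154, adjusted p = 0.0216). It went from 68.4 to 91 in Col-aeq, the single rise, and from 120.3 to 143.9 down to 71.8 to 94.7 in the other 5 lines. Without Col-aeq its fall was −0.72 (adjusted p = 8.79e-05), and it did not pass without Col-0, fab1, fad2 or 35S-FAD3 (adjusted p 0.0599 to 0.0765). BZIP17, a related factor, stood at 0.30 (SE 0.109, adjusted p = 0.0583) and passed without Col-aeq (0.36, adjusted p = 0.0193).

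Chaperonins, the ring-shaped folding machines, went the other way, with 4 of 8 higher in the cold and 0 lower (median 0.25). These 4 were AT3G03960 (0.42, SE 0.0778, adjusted p = 0.00175), AT3G18190 (0.36, SE 0.0706, adjusted p = 0.00258), AT1G24510 (0.27, SE 0.0722, adjusted p = 0.0146) and AT5G20890 (0.23, SE 0.0677, adjusted p = 0.0248). Each was higher in the cold in 6 of 6 lines. Over all probe sets 15.1% passed as higher, and the share higher in 6 of 6 lines is not given. For AT3G18190 the 6 ambient signals were 385.4 to 455.8 and the 6 cold signals 461.1 to 566.7, with no overlap. AT5G20890 did not pass without fab1, fad2 or 35S-FAD3 (adjusted p 0.0598 to 0.0826), nor AT1G24510 without fab1 (adjusted p = 0.0531).

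In fad2, 1 listed probe set was higher and 1 lower of 32 against the control lines, beside the 9.48% of all probe sets that passed, with a median of −0.00 against 0.02 over all probe sets. Cpn60beta2, a plastid chaperonin subunit, was higher by 0.68 (SE 0.166, adjusted p = 0.0298), with 571 and 559.7 in fad2 against 259 to 408.1 elsewhere. AT4G21870 was lower, at −0.90 (SE 0.235, adjusted p = 0.0381). Both calls were lost without the Col-0 ambient array or either fad2 array (adjusted p 0.0986 to 0.29), and AT4G21870 also without Col-0 cold (adjusted p = 0.0925). The ER genes AT5G07340 (0.53, SE 0.15, adjusted p = 0.0515) and CRT1b (0.41, SE 0.119, adjusted p = 0.0538) stood beside ATERDJ3B just short of the threshold. Without the Col-aeq arrays, where 11.6% of all probe sets passed, 5 listed probe sets were higher and 3 lower. The higher ones were Cpn60beta2 (0.58, adjusted p = 0.0252), Fes1B, CRT1b (0.44, adjusted p = 0.0351), AT5G07340 (0.59, adjusted p = 0.0408) and ATERDJ3B. The lower ones were AT4G21870 (−0.66, adjusted p = 0.028), AT1G54050 (−0.71, adjusted p = 0.0412) and Fes1A (−0.60, adjusted p = 0.0343).

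In 35S-FAD3, 0 of 32 listed probe sets passed with both controls, with a median of −0.15 against 0.02 over all. Fes1A had 73 and 64 in 35S-FAD3 against 85.3 to 155 on the other 10 arrays (−0.85, SE 0.188, adjusted p = 0.128). Hsp70-2 had 54.6 and 65.1 against 65.3 to 124.7 (−0.71, SE 0.211, adjusted p = 0.255). These 2 of the 32 were below all other arrays on both 35S-FAD3 arrays, and 0 were above all others, where 0.908% and 1.05% of all probe sets were. Without the Col-aeq arrays, Fes1A (−0.92, adjusted p = 0.0232), Hsp70-2 (−0.97, adjusted p = 0.0351) and AT3G09440 (−0.97, adjusted p = 0.0259) were lower than in Col-0 and Fes1B was higher. In that fit the line cannot be told apart from the apoaequorin of its genotype label. With the Col-aeq cold array alone left out, Fes1A, Hsp70-2 and AT3G09440 stood at −1.02, −0.88 and −0.73. With the Col-aeq ambient array, the one with the high actin ratio, left out instead, these 3 genes stood at −0.67, −0.54 and −0.50. AT1G11660, placed in the same HSP70 list, stood at −0.01 (SE 0.165, adjusted p = 0.988).

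In fab1 and fad3/7/8, 0 of 32 listed probe sets passed against both controls, with medians of −0.06 and −0.18 beside 0.00 and 0.03 over all. Without the Col-aeq arrays 0 passed in fab1, and in fad3/7/8 Fes1B was higher and AT3G09440 lower (−0.90, adjusted p = 0.0202).

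**Figure D4:**
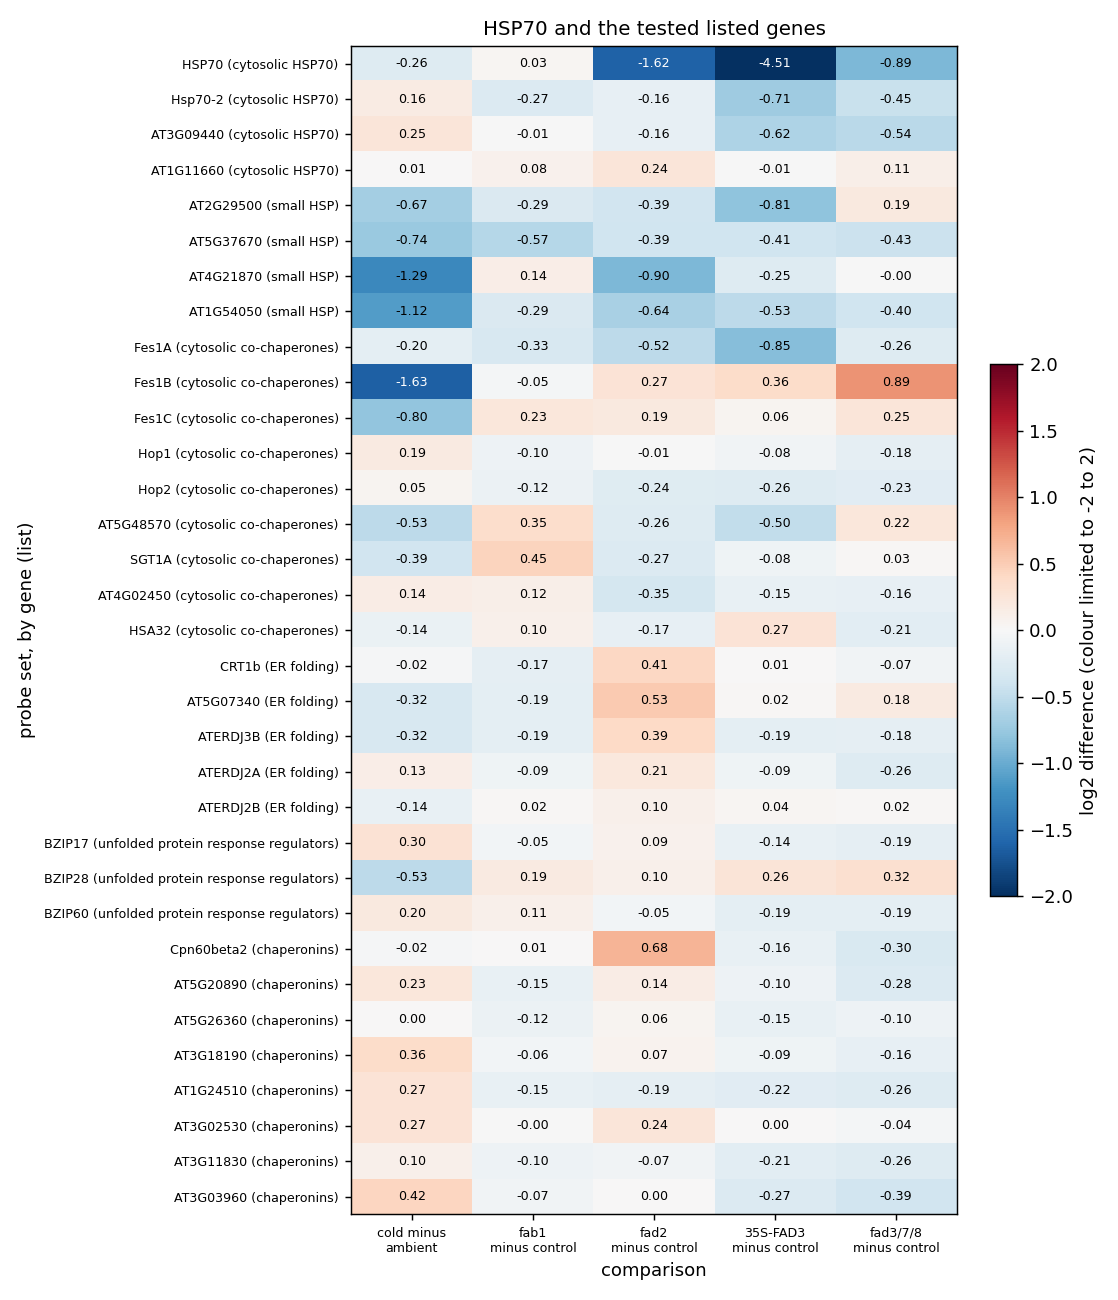
Fitted log2 differences of HSP70 and the 32 tested probe sets of the chaperone lists (rows) for cold minus ambient over 6 lines and for each altered line minus the mean of 2 control lines (columns); blue is lower, red higher, and colour stops at 2 in either direction. The value of largest size on the map is −4.51 for HSP70 in 35S-FAD3, and the small heat shock protein rows are blue in the cold.

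Likeness to HSP70 was measured as Pearson's r of the log2 values, over arrays that share their lines and a common scaling, and is given as a description. Over 12 arrays the most alike were 251975_at (r = 0.883), AT3G17750 (0.878), 248332_at (0.874), AT2G44210 (0.868) and GAT1_2.1 (0.866), of which 3 are also among the 5 lowest in 35S-FAD3. Without the 2 35S-FAD3 arrays, r fell to 0.262 for AT3G17750 and −0.25 for AT2G44210, while 248332_at had 0.959 and 251975_at 0.874. Over those 10 arrays 255885_at (0.971), 248332_at, 252602_at (0.945), AT3G56510 (0.939) and AT5G11020 (0.92) were the most alike. Among the listed chaperone genes Fes1A was nearest, with 0.827 over 12 arrays and 0.738 over 10. Of the members, AT5G48570 had 0.55 and 0.408, BZIP60 0.43 and 0.286, ATERDJ3B 0.11 and −0.46, and Fes1B −0.06 and −0.13.

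Genes beside AT3G12580 in the RefSeq order were looked up, since position played no part in the choice. Of the 6 protein-coding neighbours on each side, 6 had a single-gene probe set in all. The nearest, AT3G12570, had 41.3 and 55.3 in 35S-FAD3 against 58.1 to 95.9 elsewhere. Both arrays thus lay below the others, as for 0.908% of all probe sets ranked, and a part of position in this was not tested. AT3G12590, on the other side, had 58.1 and 43 against 45.2 to 68.2, so its cold array alone lay below the others. DRT100 had 290.3 and 198.4 against 170.3 to 538, within the range of the other lines, as were AT3G12620 and PSF2, and AT3G12540 had signals of 0.6 to 9.6 over the 12 arrays.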

How the data were processed

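Each deposited value is the authors' MAS5 signal of a probe set, an intensity on a linear scale; per the submitters' processing notes the tools were MAS5 and GCOS, with no settings given. Every array had a mean of 100 once the top and bottom 2% of values were trimmed, and that scaling was kept. No array carries a read depth, the number of arrays limits the precision, and 0 pairs of columns were identical.

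GEO's platform table lists 14016 of 22810 probe sets, 13513 with 1 gene and 503 with several. RefSeq (TAIR10.1) matched 13436 and served for names and gene order. Analysis used log2(signal + 1.6), where 1.6 is the 10th percentile, which makes the fold changes of weak signals too small. The filter was a mean at or above the 40th percentile (22.9), and the 64 Affymetrix controls were dropped, leaving 13652. limma 3.58.1 (R 4.3.3) modelled line plus temperature with 5 residual degrees of freedom and an intensity trend; the threshold was a Benjamini-Hochberg adjusted p of 0.05. Each altered line was set against the average of Col-0 and Col-aeq. Cold changes of mutants and controls were compared on the 6 differences within lines, with 3 residual degrees of freedom. Versions for tables and plots were matplotlib 3.10.9, NumPy 2.4.6, pandas 2.3.3 and Python 3.11.15.

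The members and lists were chosen with earlier results of these data known. Named genes are the members, the listed genes that passed a comparison with or without Col-aeq, the 5 most alike to HSP70 and the 5 lowest in 35S-FAD3. Other genes with values, the pairs of lines and the neighbouring genes were added after values were seen. Simulated data with known changes in 200 of the 13652 probe sets were drawn 5 times. Recovery of log2 changes of 1 was 91.3% in the cold and 69.3% in 35S-FAD3. For log2 changes of 0.5 it was 46.6% and 12.8%. The simulated noise was normal and independent, with no array standing apart, unlike these data. The alternatives were quantile normalization, a larger pseudocount (25th percentile), no filter, no trend, no line term, no Col-aeq arrays, and each array or line left out.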

Additional observations from a re-analysis of the deposited data

Results flagged for a closer look

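Sets of 6 arrays at a temperature, or of 6 within-line cold changes, were searched for a value far from the rest by Dixon's ratio. The search covered 72 sets of the genes described above, and 9 had such a value. Chance gives about 1 in 20 in independent sets of genes not chosen by their values. These genes were partly chosen from these data and the sets of a gene share arrays, so the count cannot be weighed against chance. In the cold, HSP70 had a signal of 9.9 in 35S-FAD3 against 114.7 to 396.4 in the other lines, which is the value it was chosen for. The Col-0 line stood apart in the cold changes of AT5G48570 (0.75 against −1.31 to −0.63) and Fes1B (−0.99 against −1.86 to −1.71), and in the cold signal of AT1G54050 (47.4 against 28.8 to 33.7). The fad2 line stood apart in the cold signal of CRT1b (512.5 against 351.4 to 374) and the ambient signal of Cpn60beta2 (571 against 309.1 to 388). The Col-aeq line stood apart in BZIP28, both in its ambient signal (68.4 against 120.3 to 143.9) and in its cold change (0.40 against −0.99 to −0.47); the ambient array is the one with the high 3' to 5' actin ratio, and the part of that in the result was not tested. AT3G18190 had a cold signal of 461.1 in fad3/7/8 against 524.6 to 566.7.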

How the results depend on the processing

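Every array is labelled replicate 1, so replicate numbers pair no samples. The ambient and cold arrays of a line are paired by the line term of the cold comparison itself. Of the tests on the 5 members, 282 kept their direction and side of the threshold over all alternatives, 14 changed sign, 11 passed newly and 2 no longer passed; causes were not tested. Quantile normalization brought ATERDJ3B in fad2 past the threshold (0.41, adjusted p = 0.0427) and gave 5 listed genes there. The larger pseudocount moved HSP70 in 35S-FAD3 to −3.95. Without the filter, which tests more probe sets, 793 passed in fad2, 16 in 35S-FAD3 and 2 in fad3/7/8, against 1294, 26 and 5, and 0 listed genes passed in fad2. Without the trend 3 passed in fad3/7/8 and 0 listed genes in fad2. Without the line term ATERDJ3B did not pass in the cold (−0.32, adjusted p = 0.09). Without both Col-aeq arrays 17 passed in fab1 (2 with them), 315 in 35S-FAD3 and 691 in fad3/7/8, with 8 listed genes in fad2, 4 in 35S-FAD3 and 2 in fad3/7/8. In the same setting HSP70 stood at −0.088 in fab1 and −1.01 in fad3/7/8, ATERDJ3B at 0.44 in fad2, and Fes1B at 0.66 in fab1, 0.98 in fad2, 1.08 in 35S-FAD3 and 1.60 in fad3/7/8.

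With single arrays left out, the number passing ranged from 1 to 750 in fab1, 54 to 3414 in fad2, 3 to 1676 in 35S-FAD3 and 0 to 1809 in fad3/7/8; the highest counts came without the Col-aeq cold array. Listed genes ranged from 0 to 9 in fad2, 0 to 6 in 35S-FAD3 and 0 to 4 in fad3/7/8. With single lines left out, 0 to 549 passed for the mutant against control cold change, 549 without Col-0. HSP70 ranged from −4.82 to −4.21 in 35S-FAD3, −0.30 to 0.37 in fab1, −1.86 to −1.39 in fad2, −1.08 to −0.71 in fad3/7/8 and −0.23 to 0.84 for the difference in cold change. AT5G48570 ranged from −0.78 to −0.37 in the cold, −0.035 to 0.73 in fab1, −0.64 to 0.12 in fad2 and −0.25 to 0.69 in fad3/7/8. Fes1B ranged from −0.24 to 0.15 in fab1, 0.70 to 1.08 in fad3/7/8 and −0.74 to 0.052 for the difference in cold change; ATERDJ3B in fad2 from 0.33 to 0.46; and BZIP60 in fad2 from −0.11 to 0.0015. With 1 array per line and temperature, small differences between lines are beyond the precision of these tests.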
